A study of Mus musculus with 12 samples.

Results

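Cytosolic ribosomal protein genes were examined in ATAC-seq data, an assay in which Tn5 transposase tags accessible DNA, from mouse embryoid bodies differentiated towards mesoderm for 3, 5 or 10 days. Members were the protein-coding genes whose symbol starts with Rpl or Rps and a digit, with Rplp or with Rpsa, without the Rps6k kinases and pseudogene symbols. The rule found 89 of 21631 protein-coding genes on chromosomes 1 to 19 and X. They comprise 43 genes of the large subunit, 31 of the small subunit and 3 of the stalk (77 canonical genes), together with 11 paralogues or retrocopies. The last, Rps19bp1, is not a ribosomal protein gene and encodes a protein that binds Rps19.

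The libraries fell into 6 groups of 2. At days 3 and 5, embryoid bodies of a Foxk1 knockout (KO) line were set against those of the iHA-Foxk1 line kept without doxycycline, and at day 10 KO libraries against libraries labelled Control. The label of every library gives no doxycycline. Foxk1 is a forkhead transcription factor, and the comparison of arms asks which open chromatin differs between KO and control. At days 3 and 5 the arms are different lines, so the loss of Foxk1 and other differences between the lines cannot be told apart. Stem cells were grown on irradiated mouse fibroblasts, which a plating step served to remove, and the labels do not say which cells the day 10 Control libraries came from, whether a line is 1 clone, or whether paired libraries were grown as separate cultures. P-values therefore measure only how far these libraries spread, possibly for technical reasons.

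Each deposited list gives the summit, or highest point, of every peak and a score. Lists held 53456 to 59006 summits at day 3, 14519 (iHA-Foxk1 replicate 1) to 48391 at day 5, and 4028 and 4755 (KO) against 10548 and 7764 (Control) at day 10. The lists hold no reads, so read depth is unknown and the list length is the only value akin to it. Peak names in both KO lists of day 5 carry a day 7 tag, and the day 10 names lack a duplicate-removal tag that the earlier names have, so that day 10 and its processing cannot be told apart. Of the marker genes, 8 to 9 of 10 pluripotency genes and 8 to 9 of 10 genes of nascent mesoderm had a summit within 1 kb of a gene end at day 3. Cardiac genes had one in 6 to 8 of 12 cases at day 3 and in 1 to 3 of 12 at day 10, and fibroblast genes in 7 of 10 at day 3 and in 0 or 1 of 10 at day 10. At day 10 pluripotency genes had one in 0 to 3 of 10 and genes of nascent mesoderm in 0 of 10. The share of all protein-coding genes fell as well, from between 62.7% and 64.1% at day 3 to between 11.2% and 34.5% at day 10. Whether the marker genes fell by more was not tested. The part of any other cell type in the results below was not tested, and summit lists cannot check the knockout.

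Ribosomal proteins and ribosomal RNA form the small and large subunits that carry out translation, and dividing cells make them in nearly equal amounts. Mammalian ribosomal protein genes are single-copy genes, scattered over the genome, with short, strongly transcribed promoters. Their transcripts usually start at a cytosine within a run of pyrimidines, the TOP motif, through which mTOR signalling controls their translation. Loss of a single copy of several of them causes Diamond-Blackfan anaemia, and the free proteins Rpl5 and Rpl11 restrain Mdm2.

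The promoters showed the pyrimidine start in a minority of the annotated starts. RefSeq (GRCm38.p6, the assembly of mm10) gave a promoter from 250 bases before to 50 bases after the start for 69 members, and 20 had no entry. The start base was C in 24 of the 69 (34.8%), against 13.9% of 17274 protein-coding promoters, and lay inside a run of at least 8 C or T bases in 17 (24.6%), against 3.51%. Here are 6 members with a long run, shown because such a run was more frequent in members than in all promoters, though most members lacked it. Each stretch covers 40 bases before the start and 20 from the start on, 5′ to 3′ along the gene, and capitals mark the C and T run that holds the start.
Rpl7a, chr2:26910767-26910826, plus strand: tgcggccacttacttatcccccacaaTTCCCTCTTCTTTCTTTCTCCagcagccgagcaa
Rpl27a, chr7:109519155-109519214, plus strand: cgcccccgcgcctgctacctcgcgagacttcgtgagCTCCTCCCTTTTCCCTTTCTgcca
Rpl35, chr2:39005112-39005171, minus strand: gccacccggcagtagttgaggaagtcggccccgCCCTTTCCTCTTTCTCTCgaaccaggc
Rpl15, chr14:18270967-18271026, minus strand: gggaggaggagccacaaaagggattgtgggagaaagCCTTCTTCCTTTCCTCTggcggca
Rps10, chr17:27635225-27635284, minus strand: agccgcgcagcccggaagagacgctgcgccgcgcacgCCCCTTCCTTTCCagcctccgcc
Rps6, chr4:86857348-86857407, minus strand: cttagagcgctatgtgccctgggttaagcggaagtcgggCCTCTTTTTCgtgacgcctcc

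The run of Rpl7a, a large-subunit protein gene, was the longest, with 21 bases. That of Rpl15, a large-subunit gene mutated in some cases of Diamond-Blackfan anaemia, had 17 bases, and that of Rps6, the substrate of S6 kinase, had 10. The next 4 have no such run at the listed start and are shown because results below turn on them.
Rpl37, chr15:5116573-5116632, plus strand: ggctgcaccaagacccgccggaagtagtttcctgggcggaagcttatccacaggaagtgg
Rps19, chr7:24884552-24884611, plus strand: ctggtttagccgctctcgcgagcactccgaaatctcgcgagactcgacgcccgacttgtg
Rpl23, chr11:97782420-97782479, minus strand: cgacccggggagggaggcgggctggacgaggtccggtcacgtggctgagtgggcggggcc
Rps12, chr10:23787190-23787249, minus strand: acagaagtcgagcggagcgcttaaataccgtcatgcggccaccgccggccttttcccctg

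Letters ccggaag, the core bound by ETS factors, can be read in the stretches of Rpl37 and Rps10. Exact letters were searched on both strands of the promoter window, and no motif contains another, although neighbouring matches can share bases. The ETS core CCGGAAG was found in 25 of 69 members (36.2%), against 12.05% of all promoters. AAGATGG, the core of YY1, was found in 9 (13.0%, against 6.42%), and GGGCGG, the SP1 box, in 40 (58.0%, against 46.9%). CCAAT (NFY) occurred in 31.9% against 39.4%, TATAAA, the core promoter box, in 10.1% against 13.4%, GCATGCGC (NRF1) in 2.90% against 3.64%, and CACGTG (E-box) in 7.25% against 8.00%. GTAAACA, the forkhead core, was found in 1 member (1.45%), Rpl41, against 2.98% of all promoters. Such matches describe letters and not binding. Members with the ETS core had a median list percentile of 21.6 (22 members) and those without one of 25.4 (41 members). For members with and without the C and T run, the values were 24.7 (16 members) and 23.9 (47 members).

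Summits lay just upstream of the starts. In the day 3 libraries the best-scoring summit within 1 kb of a member's start was at a median of -65.5 and -63.5 bp in KO and -49.0 and -52.0 bp in iHA-Foxk1 (63 or 64 members). For all genes the medians were -27.0 to -30.0 bp. At day 5 members had medians of -40.0 to -45.5 bp, and at day 10 of -51.5 to -86.0 bp. Those of all genes were -1 to -29 bp at day 5 and -47 to -69 bp at day 10. Medians thus lay farther upstream at day 10 than at day 5 for members and all genes alike. Between 76.6% and 82.5% of members had the summit within 150 bp of the start at day 3. In iHA-Foxk1 day 5 replicate 1, the shortest list of that day, only 55.2% did, and 51.9% of all genes. Positions in this library were thus wider both for members and over all genes. Summits of Rps6 lay at -12 to -25 bp in all 9 libraries that had one, whereas those of Rps19 spread from -611 to -124 bp over 12 libraries.

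**Figure D1:**
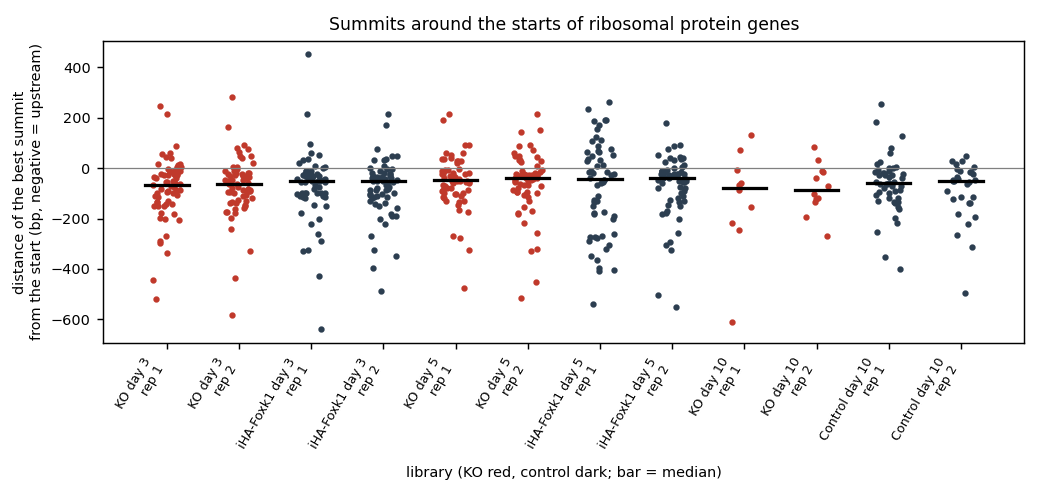
Distance in bp of the best summit within 1 kb of the start (negative is upstream) for members with a RefSeq start, with 1 point per gene, 1 column per library and a bar at the median. Medians lie between -40.0 and -86.0 bp in every library, and iHA-Foxk1 day 5 replicate 1 has the widest spread of the days 3 and 5 lists.

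Most ribosomal protein genes had a summit near a gene end at days 3 and 5 in both arms. Either end counts here, so such a summit need not lie at the promoter, as with Rpl4. Of the 69 members with a listed start, 58 to 64 had a summit within 1 kb of it in the libraries of these days. A summit within 1 kb of either end of the gene (a gene-end summit) was found at day 3 for 80 and 81 of 89 members in KO and for 79 and 80 in iHA-Foxk1. These are 88.8% to 91.0% of members, against 62.7% to 64.1% of all protein-coding genes. Day 5 gave 82 and 81 members in KO and 72 and 80 in iHA-Foxk1, against 61.8%, 61.1%, 44.1% and 59.2% of all genes in the same order. The lowest count came with the shortest list. In both arms the share of members was above that of all genes, and apart from this list the counts of the arms differed by at most 2 members.

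At day 10 far fewer members had a summit, and the arms differed. Members with a gene-end summit numbered 14 and 17 in KO and 62 and 40 in Control. As shares of members these are 15.7%, 19.1%, 69.7% and 44.9%, against 11.2%, 14.3%, 34.5% and 26.3% of all genes. The lists differed in length in the same direction. Among the 4028 best summits of each list, the length of the shortest, members numbered 14 and 15 in KO and 24 and 22 in Control. All protein-coding genes numbered 2426 and 2652 in KO and 3447 and 3243 in Control on the same footing, so both counts were lower in KO without a difference in list length.

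**Figure D2:**
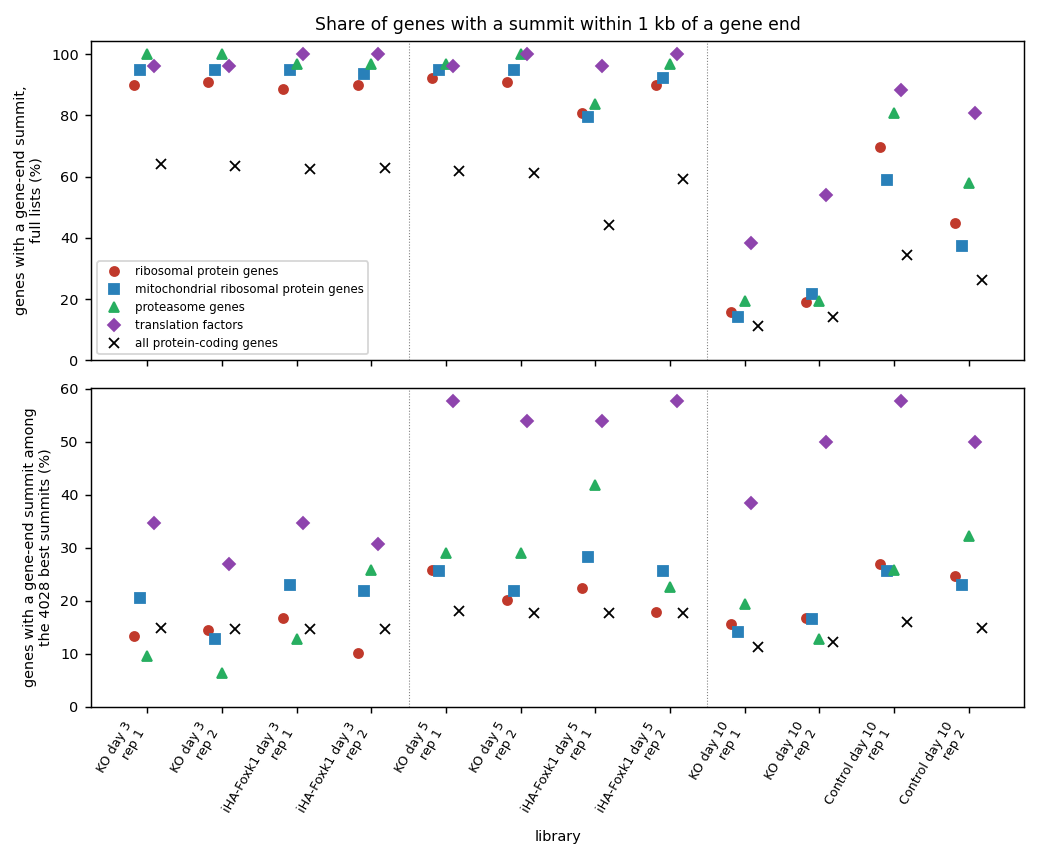
Share of genes (%) with a summit within 1 kb of a gene end in each library, on full lists (upper panel) and among the 4028 best summits (lower panel), for members, 3 other gene lists and all protein-coding genes. Members lie between 80.9% and 92.1% at days 3 and 5 on full lists and between 15.7% and 69.7% at day 10.

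Presence was broad across both subunits. A summit in all 8 libraries of days 3 and 5 was found for 70 members, among them 35 of 43 large-subunit genes, 27 of 31 small-subunit genes and all 3 stalk genes, Rplp0, Rplp1 and Rplp2, which form the site that recruits elongation factors. Of the 11 paralogues and retrocopies, 4 did so. A neighbour's promoter could supply some of these summits, since 32 members have another gene's end within 1 kb. Of the other 57 members, 49 to 51 had a summit at day 3.

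In all, 10 members had a summit in all 12 libraries, among them Rpl15, Rpl21, Rpl22l1, Rpl34, Rpl37, Rps19, Rps21, Rps29 and Rpsa. Another 72 had one in 1 to 11 libraries and 7 in none. Of the 7, Rpl32l, Rpl37rt and Rps27rt are retrocopies, and Rpl39l is the paralogue of Rpl39. The other 3 were Rpl17, Rps2 and Rps27l. Rpl22 had a gene-end summit in KO day 5 replicate 1 alone. The rule misses starts inside a gene record, and the listed RefSeq starts of Rpl22, Rps2 and Rps27l lie there. Rpl17, Rpl22 and Rps27l had a summit inside the gene, 1223 to 1843 bp from an end, in at least 7 of the 8 libraries of days 3 and 5. Rps2, on chromosome 17, had one inside the gene 1776 to 1867 bp from an end in all 8. With the gene body counted, 83 to 86 members had a summit at day 3 and 77 to 85 at day 5.

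The height of these peaks within their lists varied widely among members. A list percentile places a gene's best gene-end summit in its own list, with 0 for the highest score and 100 for the lowest. It can be compared between genes of 1 list, but only loosely between lists of unequal length. Rps29, a small-subunit gene, stood at 0.467 and 0.457 in KO and 0.427 and 0.807 in iHA-Foxk1 at day 3. It stood at 0.315, 0.713, 13.5 and 0.483 at day 5, and at 56.4, 16.6, 7.10 and 21.6 at day 10, in the same order. Except in the shortest day 5 list, its peak was thus among the top 1% of summits at days 3 and 5, and KO and Control overlapped at day 10.

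Rpl37, a large-subunit gene, had the median closest to that of Rps29 (0.836 over the 12 libraries, against 0.760), and Rpl15 (0.977) and Rpl34 (6.13) were also low. The day 3 values of Rpl15 were 0.930, 0.538, 1.02 and 0.835 and its day 5 values 0.487, 0.428, 15.4 and 0.859. Its day 10 values were 78.7 and 35.7 in KO against 5.29 and 7.76 in Control. In Rpl15 the arms did not overlap at day 10. The lowest medians of the 10 belonged to Rpl22l1 (6.84), Rps21 (7.25), Rpl21 (12.4), Rps19 (14.9) and Rpsa (22.2), the gene of the laminin-receptor precursor that sits in the small subunit.

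**Figure D3:**
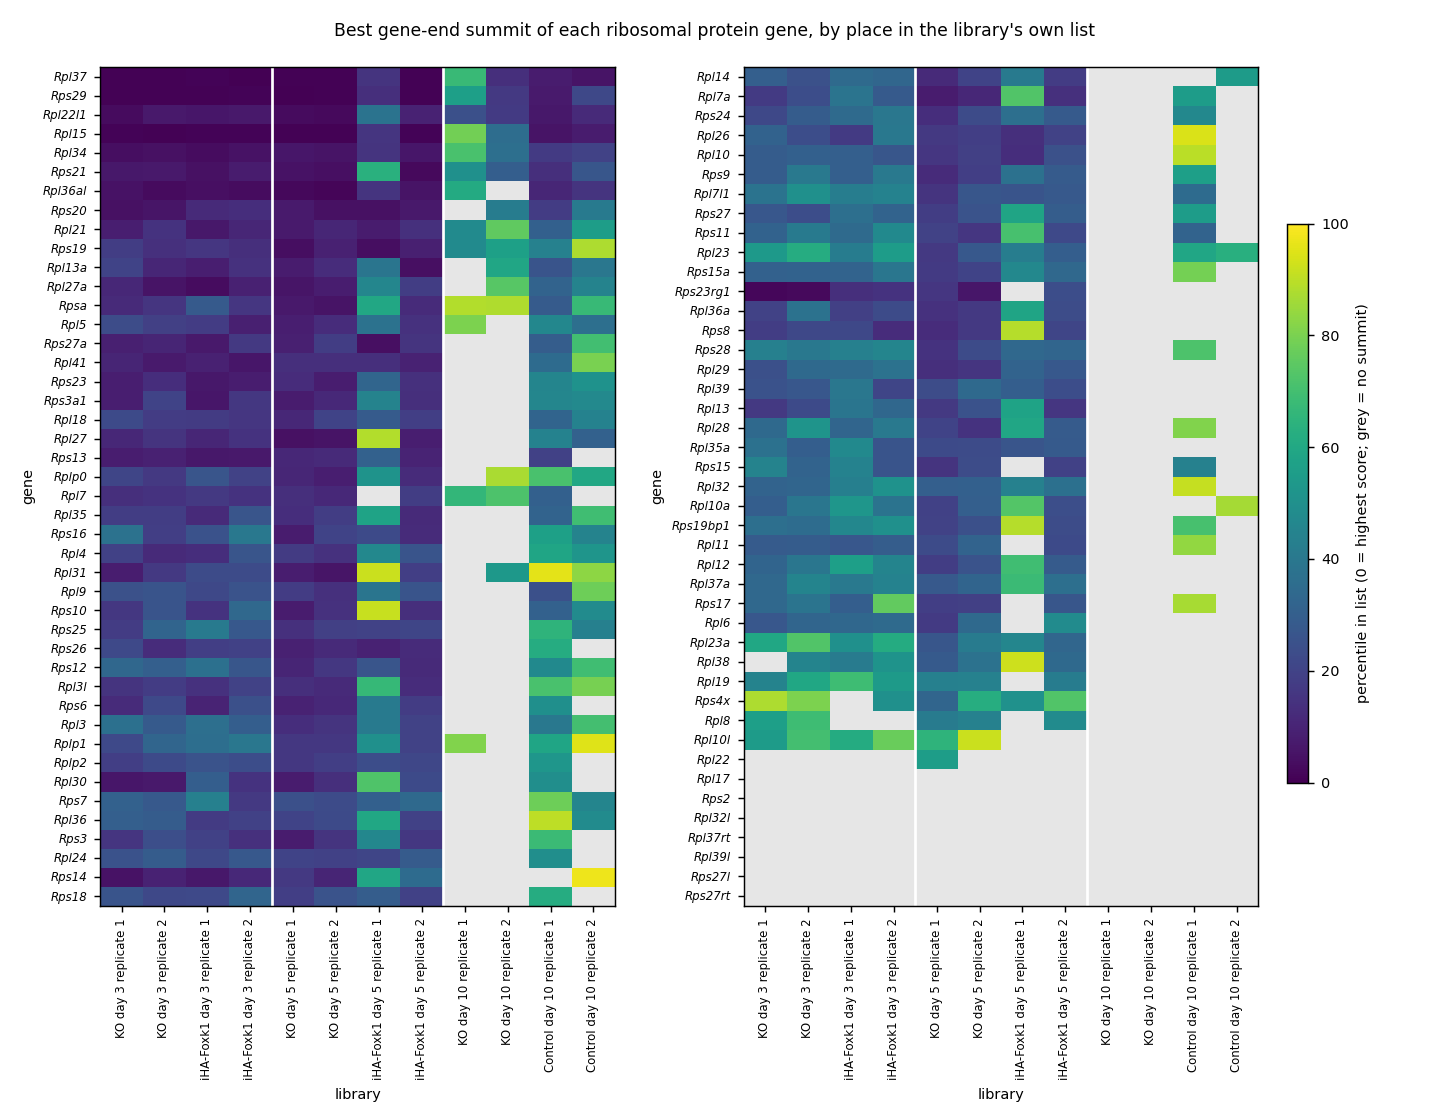
List percentile of the best gene-end summit of the members shown (rows, in order of how many libraries and how high) in each of the 12 libraries (columns), with dark for the highest score (0), yellow for the lowest (100) and grey for no summit. Dark rows at the top include Rps29, Rpl37 and Rpl15, and grey takes over at day 10, more so in KO than in Control.

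As a group the members did not have unusually high peaks. Places among the genes with a gene-end summit in all 4 libraries of a day were averaged over those libraries. The means were cut into 4 bands of equal width, which need not hold equal numbers of genes, since averaging thins the outer bands. At day 3 the 78 members of 12847 genes gave 10, 19, 32 and 17 from best to lowest, with a median mean place of 61.2. At day 5, 72 members of 9337 genes gave 8, 18, 37 and 9, with a median of 59.4. In single libraries the best band held 9 to 15 members at day 3 and 9 to 13 at day 5. The lowest band held 16 to 23 and 15 to 20. The third band held the most members on both days. High presence and middling to low rank went together in these lists, and Rps29, Rpl37 and Rpl15 stood apart from the rest.

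Among genes named for their roles, Rpl5, whose protein joins Rpl11 and a small ribosomal RNA before assembly, stood at 23.4 and 18.9 in KO and 17.7 and 8.63 in iHA-Foxk1 at day 3. Rpl11 stood at 28.8, 29.2, 27.1 and 29.6, the closest agreement of these genes. Rps6 stood at 12.2, 22.1, 10.1 and 24.4, with the replicates of each arm farther apart than the arms. Rplp0, the stalk base, stood at 20.9, 16.5, 26.4 and 19.6. Rpl38, known for its part in the translation of Hox transcripts and in skeletal patterning, had no gene-end summit in KO day 3 replicate 1 and stood at 45.1, 41.5 and 51.3 in the other day 3 libraries. Its summit in that library lay 247 bp from the listed start, which is inside the gene record and past 1 kb from its end.

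The paralogues were heterogeneous. Reads of a retrocopy and its parent gene can be hard to tell apart, and how such reads were placed is not given in the sources used here. Rpl36al and Rpl22l1 were near the top at day 3 (2.83 to 4.87 and 2.88 to 6.93 over the 4 libraries). Rpl3l, the striated-muscle paralogue of Rpl3, stood at 14.3 to 19.8, with a gene end of Msrb1 within 1 kb. Rpl7l1, a nucleolar relative of Rpl7, stood at 38.3 to 50.2. Rpl10l, the testis retrocopy of the X-linked Rpl10, stood at 54.9 to 77.0, had summits in both KO libraries of day 5 (64.9 and 92.1) and in neither of iHA-Foxk1, and had none at day 10. Rps19bp1 stood at 35.5 to 50.3 at day 3.

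Few members differed between KO and control at day 3. Presence was compared among the 53456 best summits of each list, where a gene counts as KO-only if each KO list has a gene-end summit for it and no control list does, and as control-only the other way round. Only Rpl8, which lies close to the peptidyl transferase centre (chr15:76904071-76906318), was KO-only, 1 of 81 members against 1.25% of all genes. Its KO summits were low in their lists, at 56.6 and 68.8. No member was control-only (0.849% of all genes). Presence was counted and not tested, since 2 libraries an arm are too few. On full lists the counts were the same (1.42% KO-only and 0.823% control-only over all genes).

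Ranks were compared with limma, on normal scores of each gene's rank among all genes with a gene-end summit in every library of the comparison. A positive difference means a better rank in KO, and p-values were adjusted by Benjamini-Hochberg over all these genes. Rps23rg1, a retroposed copy of Rps23 on chromosome 8, was the member that passed at day 3. Its list percentiles were 1.85 and 2.49 in KO and 13.5 and 14.7 in iHA-Foxk1. The arms did not overlap. The difference was 1.19 ± 0.23 (SE, limma adjusted p = 0.0190). It is 1 of 78 members higher in KO, against 0.366% of 12847 genes, and 0 were lower, against 0.755%. At an unadjusted p under 0.05 there were 8 members (12.03% of all genes), and the median difference over members was -0.04 (0.00 over all genes). Without KO replicate 1, iHA-Foxk1 replicate 1 or iHA-Foxk1 replicate 2 the call for Rps23rg1 was lost, at differences of 1.13, 1.22 and 1.14, and with percentiles in place of normal scores it was lost too.

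Day 5 gave no member a rank difference between the arms. By limma, 0 of 72 members passed in either direction (0% of 9337 genes), and 3 members had an unadjusted p under 0.05 (4.73% of all genes). The smallest adjusted p of a member was 0.821. Differences ran from -1.02 to 1.51 with a median standard error of 0.43, wider than the 0.24 of day 3. Without iHA-Foxk1 replicate 2, iHA-Foxk1 replicate 1 was the lone control, with an assumed spread like that of KO. Members were then called in both directions, with no share over all genes set beside them.

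Presence at day 5 named 1 member. Among the 14519 best summits Rpl6, a large-subunit gene, was KO-only, with percentiles of 17.0 and 34.1 in KO. In iHA-Foxk1 it had no summit in replicate 1 and one at rank 16441 in replicate 2, below the limit. That is 1 of 77 members, against 1.54% of all genes, and 0 were control-only, against 1.92%. On full lists Rpl6 was no longer KO-only and Rpl10l was, again 1 member (4.21% of all genes), with 0 control-only (0.239%). Without iHA-Foxk1 replicate 2 the KO-only count among the best summits was 6. With the number of best summits cut by a factor of 2, there were 2 KO-only and 3 control-only members. No share over all genes was counted under these other settings, so they do not set members apart from all genes.

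Between day 3 and day 5 several ribosomal protein genes rose in rank. In the 8 libraries, with the arm as a covariate, 9 of 70 members rose and 1 fell by limma at an adjusted p under 0.05. Over all 9232 genes the shares were 3.03% and 4.78%. The difference was positive for 56 members and negative for 14, with a median of 0.30, while 51.8% of all genes were positive, with a median of 0.02. Members with an unadjusted p under 0.05 numbered 24, and 25.7% of all genes had one.

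The members that rose belong to both subunits. Rpl23, a large-subunit protein that also binds Mdm2, stood at list percentiles of 54.2 and 62.0 in KO and 42.1 and 55.3 in iHA-Foxk1 at day 3, and at 16.6, 27.4, 42.4 and 29.8 at day 5. Its mean place among the genes tested went from 97.1 to 74.5, and the normal score rose by 1.36 ± 0.25 (SE, limma adjusted p = 0.00951). Rps12, a small-subunit gene, stood at 33.4, 30.1, 37.1 and 26.8 at day 3 and at 10.3, 16.0, 26.5 and 11.7 at day 5. On its normal score the rise was 1.15 ± 0.23 (limma adjusted p = 0.0121). In both genes every day 5 library was ahead of every day 3 library in rank among the genes tested.

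Rpl23a, at the exit of the peptide tunnel, stood at 59.4, 72.9, 50.3 and 61.4 at day 3 and at 26.9, 41.6, 45.9 and 33.2 at day 5, with no overlap, and rose by 1.23 ± 0.25. Rps19, the gene most often mutated in Diamond-Blackfan anaemia (chr7:24884592-24889811), stood at 18.2, 14.0, 15.8 and 13.6 at day 3 and at 3.79, 9.36, 3.72 and 8.80 at day 5. Here also the days were apart, and the rise was 1.01 ± 0.27 (limma adjusted p = 0.0404). Rpl7l1 (1.15), Rps16 (1.08), Rps28 (1.07) and Rpl3 (0.90), which shapes the peptidyl transferase centre, also rose. Rps14, a small-subunit gene known from a deletion syndrome of the bone marrow, fell by 0.97 ± 0.27 (limma adjusted p = 0.0404). It stood at 4.80, 9.48, 6.40 and 11.6 at day 3 and at 16.8, 10.4, 59.0 and 34.9 at day 5, and the days overlapped in rank.

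Every day 5 library was ahead of every day 3 library for 16 of 70 members (8.84% of all genes), and behind for 0 (8.70%). By class the difference was positive in 28 of 35 large-subunit genes, 20 of 27 small-subunit genes and 3 of 3 stalk genes, of which Rplp0 had 0.52 ± 0.24 (adjusted p = 0.193) and was not called. Other constitutive gene lists also had positive medians. Of 61 mitochondrial ribosomal protein genes tested, 38 were positive, with a median of 0.15 and 4 called higher. Of 26 proteasome genes, 19 were positive, with a median of 0.41 and 1 called higher. Of 22 genes for ribosomal RNA synthesis and ribosome assembly, 17 were positive, with a median of 0.30 and 0 called, and of 24 translation factors, 17 were positive, with a median of 0.27 and 2 called.

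**Figure D4:**
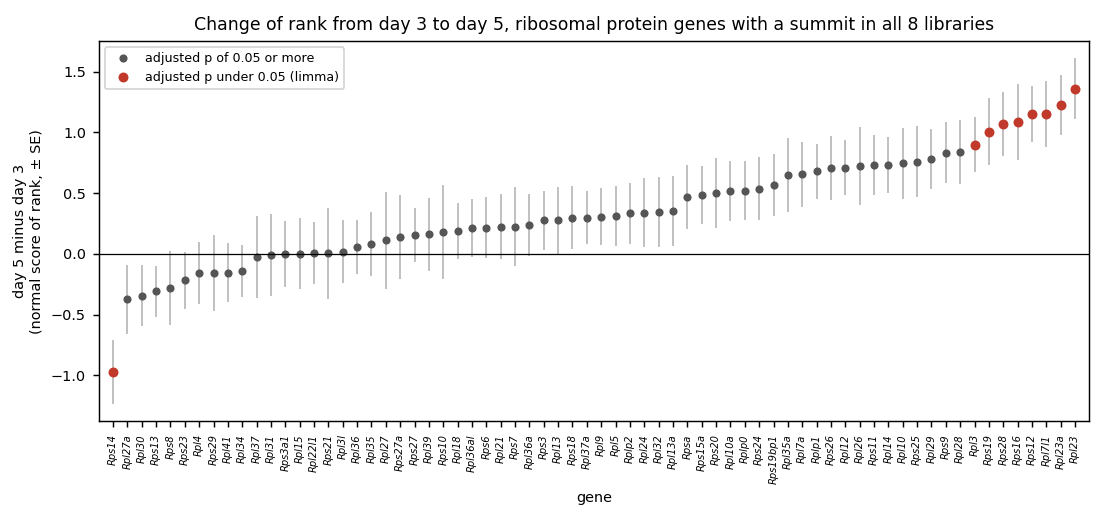
Difference in the normal score of rank, day 5 minus day 3, with its standard error, for members (horizontal axis, in order) with a gene-end summit in all 8 libraries; red points had a limma adjusted p under 0.05. Most points lie above 0, from -0.97 for Rps14 to 1.36 for Rpl23.

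The rise was called in the KO lists, which carry the day 7 tag. In KO alone, 10 of 80 members rose (3.15% of all genes) and 1 fell (4.56%), and 64 differences were positive, with a median of 0.36. Rps4x, the X-linked small-subunit gene (1.38), and Rpl28 (1.06) were among them, and Rps23rg1 was the member that fell, by 1.03. In iHA-Foxk1 alone 0 of 71 members and 0% of 9307 genes passed by limma. There 13 members had an unadjusted p under 0.05 (13.2% of all genes), 48 differences were positive, and the median was 0.38. Whether the rise differs between the arms was not tested. The count of 9 was 0 without KO day 5 replicate 1, 1 without either iHA-Foxk1 day 3 library, 3 without either KO day 3 library and 23 without iHA-Foxk1 day 5 replicate 1. Leaving out a library also changed the calls over all genes, from 721 to between 89 and 2331.

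A rise was also seen in the counts among the 4028 best summits. Members there numbered 12 and 13 in KO and 15 and 9 in iHA-Foxk1 at day 3, and 23 and 18 in KO and 20 and 16 in iHA-Foxk1 at day 5. The days were apart. All genes went from between 3182 and 3225 to between 3826 and 3909, also without overlap.

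At day 10 the number of ribosomal protein genes missing from KO differed with the list depth used and with their rank in Control. Among the 4028 best summits, 2 of 17 members were control-only (15.3% of all genes) and 1 was KO-only (1.91%). The control-only members were Rpl18, at ranks 3382 and 3454 of the Control lists, and Rps10, a Diamond-Blackfan gene of the small subunit, at 3293 and 3744. Both lay near the limit of 4028 in Control and had no gene-end summit in either full KO list. The Control summits of Rpl18 were 2775 and 2741 bp from its listed start, just outside the upstream end of its gene record. No day 10 library had a summit within 1 kb of the start, so the call does not concern the listed promoter. Rps19 was KO-only, at ranks 1921 and 2706 in KO, and had summits at 4626 and 6797 in Control, below the limit. On full lists, 0 members were KO-only (0.0552% of all genes) and 18 of 38 were control-only (39.0%).

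Losses can be read against Control rank. Of 14 members with a summit in both Control libraries among the 4028 best, 2 had none in either KO library, against 16.9% of all genes. On full lists it was 18 of 37, or 48.6%, against 39.3% of all genes. The 18 are Rpl3, Rpl3l, Rpl4, Rpl9, Rpl18, Rpl23, Rpl27, Rpl35, Rpl36, Rpl41, Rps3a1, Rps7, Rps10, Rps12, Rps16, Rps23, Rps25 and Rps27a. A listed start was at hand for 15 of them. Of these, 12 had a summit within 1 kb of it in both Control libraries and in no KO library. Rpl3l, Rpl4 and Rpl18 had none there in any day 10 library, and their Control summits lay near an end of the record away from the start. With the genes in both Control lists cut into 4 equal bands of Control rank, the losses from the best to the lowest band were 0 of 9, 1 of 4, 12 of 15 and 5 of 9 members, against 5.64%, 24.6%, 50.5% and 76.3% of all genes. No member of the best band was lost. The third band, which held the most members, lost a larger share of members than of all genes, and the lowest band a smaller one, and neither difference was tested.

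**Figure D5:**
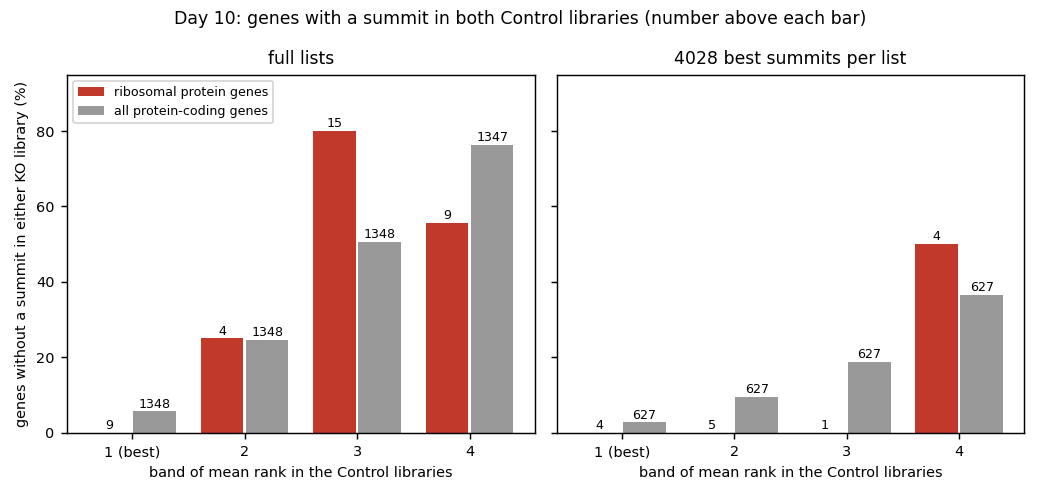
Share of genes (%) with a summit in both Control libraries that had none in either KO library at day 10, by band of mean Control rank, for members and all protein-coding genes, on full lists (left) and on the 4028 best summits (right). Numbers over the bars are genes in the band, and the share climbs from band to band for all genes, from 5.64% to 76.3% on full lists.

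Losses in other constitutive gene lists varied around that of members (48.6% on full lists), and no difference was tested. On full lists they were 10 of 29 mitochondrial ribosomal protein genes (34.5%), 10 of 18 proteasome genes (55.6%), 6 of 20 translation factors and 4 of 13 genes of ribosomal RNA synthesis and assembly. Among the 4028 best summits the counts were 3 of 15, 3 of 6, 0 of 10 and 1 of 5. Members beyond the 18 divided as follows: 10 were in all 4 day 10 libraries, 9 were in both Control libraries and 1 KO library, 27 were in 1 Control library and no KO library, and Rpl7 was in both KO libraries and 1 Control library. The remaining 24 had no gene-end summit at day 10. Rps2 and Rps27l had a summit inside the gene in both Control libraries and none nearer than 48477 bp to an end in either KO library. Rpl22 had a summit inside the gene in all 4 day 10 libraries.

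Among the 10 members present in all 4 day 10 libraries, no rank difference between KO and Control passed. By limma 0 of 10 passed in either direction (0% of 1817 genes). An unadjusted p under 0.05 was found for 2 members (6.11% of all genes), Rps19 (1.73 ± 0.60 (SE), adjusted p = 0.774) and Rpl15 (-1.55 ± 0.61, adjusted p = 0.774). Rps19 stood at 47.7 and 56.9 in KO and 43.9 and 87.5 in Control. The differences of Rps19 and Rpl15 had opposite signs. Over all 12 libraries with the day as a covariate, 0 of 10 members were higher (0.113%) or lower (0.226%) in KO, with 0 members under an unadjusted p of 0.05. The genotype effect did not pass as different between days in any of the 10 members (0.0565% of 1771 genes), the smallest unadjusted p among Rpl15, Rps19, Rpl37, Rpsa and Rps29 being 0.0100 for Rpl15.

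Against days 3 and 5 together, Rpl22l1, the paralogue of Rpl22, was higher in rank at day 10. Its places among the 1771 genes with a gene-end summit in all 12 libraries were 45.9, 71.7, 64.9 and 69.5 on day 3. They were 55.6, 39.3, 84.9 and 85.5 on day 5, followed by 18.9, 15.6, 18.04 and 27.8 on day 10. Every day 10 library was ahead of every earlier one. The difference was 1.26 ± 0.29 (SE, limma adjusted p = 0.00900). It is 1 of 10 members higher, against 3.90% of genes, and 0 were lower, against 5.36%. With genes present in no fewer than 6 of the 12 libraries, 80 members were tested, and 8 were higher and 1 lower. The share over all genes is not given for that setting, so it does not set members apart. Day 10 and its processing cannot be told apart here.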

How the data were processed

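ATAC-seq summit lists of 12 libraries were analysed, 1 list per library, so peaks were called per library. Alignment tool Bowtie2 2.2.4, peak caller MACS2 and the build mm10 are named per the submitters' processing notes, which give no MACS2 version. The deposited score of a summit is a −log10 p-value or q-value; which of them no source used here states. Scores only ranked summits within their own list. Summits on chromosomes 1 to 19 and X were kept, and gene ends came from RefSeq (GRCm38.p6). Groups came from the labels. The shortest list of each day set how many best summits were compared for presence. Ranks were turned into normal scores and fitted with limma 3.58.1 (R 4.3.3) and Benjamini-Hochberg adjustment over all genes, called at 0.05, and the fit was tested on simulated data. Tables were made with Python 3.11.15. Read depth is unknown, so no counting interval can be given, and 2 libraries per group limit the precision.

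Members and gene lists were chosen with earlier results of these data known. The text names every member seen in 1 arm alone, the 5 best and 5 lowest by median percentile among members in all 12 libraries, members seen in none, paralogues, up to 10 called members per fit, and Rpl5, Rpl11, Rps6, Rps19, Rpl38, Rplp0 and Rpsa. The 18 members lost at day 10, and the members with an unlisted pattern such as Rpl7, Rpl22, Rps4x and Rpl28, were named after their values were seen. Other windows, list depths, scores, gene sets and left-out libraries were tried. The planned search for a ZNF143 motif was not run. Some results that this rule covers are not reported here, and the plots leave out the genes concerned.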

Additional observations from a re-analysis of the deposited data

How the results depend on the processing

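Under every setting the differences of the called members in the rank fits kept their sign, but the balance of one-arm members at day 5 turned. Shares over all genes are not given beside the counts of this section, so the counts do not set members apart from all genes. Halving the number of best summits gave 0 KO-only members at day 3, 2 KO-only and 3 control-only at day 5 (against 1 and 0), and 0 KO-only, 1 control-only and 1 lost at day 10. Windows of 2 kb gave 0 KO-only members at day 3. The start alone also gave 0, but Rpl8 has no listed start, so this setting could not count it. With all summits, day 10 had 0 KO-only, 18 control-only and 18 lost members, and members without a neighbouring gene end gave 1 control-only and 1 lost. Among the 4028 best summits, members with a gene-end summit numbered 12, 13, 15 and 9 at day 3 (KO, then control), 23, 18, 20 and 16 at day 5, and 24 and 22 in Control at day 10. Leaving out a library gave 1 to 2 KO-only and 0 to 1 control-only members at day 3, 1 to 6 and 0 to 2 at day 5, 1 to 3 and 1 to 9 at day 10, and 1 to 9 lost members.

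In the rank fits, percentiles in place of normal scores gave 0 members higher in KO at day 3, and 5 higher and 0 lower at day 5 against day 3. One fit of all 12 libraries gave 0 higher in KO at day 3. It kept only genes with a gene-end summit in every library and so left out Rps23rg1. This 0 therefore cannot check the day 3 call. Control libraries alone, added after seeing the data, gave 0 higher and 0 lower at day 5. Genes in no fewer than 6 of the 12 libraries gave 8 members higher and 1 lower at day 10. Leaving out a library gave 0 to 1 members higher and 0 to 0 lower in KO at day 3, 0 to 13 and 0 to 19 at day 5, 0 to 0 in both directions at day 10 and over the days, 0 to 23 higher and 0 to 2 lower at day 5 against day 3, and 1 to 2 higher and 0 to 1 lower at day 10 against the earlier days. Same-numbered libraries did not deviate together in rank (correlations of -0.0192, -0.0650 and 0.00662 at days 3, 5 and 10). These values cannot show whether such libraries were grown or prepared together. With the replicate block, 8 members were higher and 0 lower at day 5 against day 3, and counts in the other comparisons were the same.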
